A study of Mus musculus with 5 samples.

Results

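The 39 genes described here are interferon-stimulated effector genes of the mouse, taken by symbol from a fixed list of genes that type I interferon is known to induce. Of these, 37 had a row in each of the 5 count tables, among 32285 genes, and Mx1 and Mx2 were not analysed here. They were followed in single cells of pancreatic islets from NOD.SCID mice (NOD.Cg-Prkdcscid/J, a non-obese diabetic strain whose Prkdc mutation leaves it without mature T and B cells). The tested diet was 20% HC, hydrolyzed casein, in which the milk protein is broken into small peptides, and the comparison diet was chow. HC mouse 1 was 7 weeks old and HC mouse 2 was 9 weeks old, and chow mice 1, 2 and 3 were 8, 10 and 10 weeks old. All 5 mice carried the same mutation, and the labels name no agent besides the diet. Islets of each mouse were picked by hand, dissociated with trypsin and loaded as a separate 10x 3' v3 library. The title of HC mouse 2 calls it chow fed, while its diet label gives 20% HC and the series counts 2 HC mice, so it was taken as HC. The libraries of HC mouse 1 and chow mouse 1 share the name prefix FUN, and the other 3 share the prefix SKY; the meaning of the prefix is not given, and every result on diet was also computed within each prefix.

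Type I interferons bind the receptor made of IFNAR1 and IFNAR2 and activate the kinases JAK1 and TYK2. These phosphorylate STAT proteins, STAT2 among them, which join IRF9 in the factor ISGF3, and ISGF3 binds interferon-stimulated response elements in the promoters of the induced genes. The products sense viral RNA (RIG-I from Ddx58, MDA5 from Ifih1, LGP2 from Dhx58), bind it (IFIT proteins), make or use signals for its decay (OAS proteins), stop translation (PKR from Eif2ak2), tag proteins (ISG15) or hold virions at the cell surface (tetherin from Bst2). In the islet, interferon-stimulated genes are known from work on the start of autoimmune diabetes. The NOD.SCID mice here lack the T cells that carry out that disease.

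The element is shown here in the promoters of 4 members that hold it and are named in the results below. The letters run 5' to 3' on the gene's own strand, from 250 bases before to 50 bases after its start, and capitals mark every match, on either strand, to the core of the element, which is GAAA, any 2 bases and GAAA again. A match on the opposite strand reads TTTC, any 2 bases and TTTC. They are RefSeq sequences of build GRCm38.p6, of the reference strain and not of these mice. Ifit3 lies at chr19:34583279-34583578, Ifit3b at chr19:34607707-34608006 and Ifit1 at chr19:34640639-34640938, all on the plus strand. Isg15 lies at chr4:156200769-156201068 on the minus strand.
Ifit3: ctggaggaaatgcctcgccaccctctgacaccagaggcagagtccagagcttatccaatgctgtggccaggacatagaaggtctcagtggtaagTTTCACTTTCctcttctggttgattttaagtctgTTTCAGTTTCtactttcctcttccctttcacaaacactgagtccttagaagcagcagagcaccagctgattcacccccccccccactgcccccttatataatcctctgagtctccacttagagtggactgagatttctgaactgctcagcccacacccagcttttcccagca
Ifit3b: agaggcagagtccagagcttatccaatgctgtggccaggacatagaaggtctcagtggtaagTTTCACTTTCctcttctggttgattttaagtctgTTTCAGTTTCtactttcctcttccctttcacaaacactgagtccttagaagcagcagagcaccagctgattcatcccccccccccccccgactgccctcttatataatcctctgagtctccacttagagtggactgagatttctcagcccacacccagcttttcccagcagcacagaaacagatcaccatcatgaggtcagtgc
Ifit1: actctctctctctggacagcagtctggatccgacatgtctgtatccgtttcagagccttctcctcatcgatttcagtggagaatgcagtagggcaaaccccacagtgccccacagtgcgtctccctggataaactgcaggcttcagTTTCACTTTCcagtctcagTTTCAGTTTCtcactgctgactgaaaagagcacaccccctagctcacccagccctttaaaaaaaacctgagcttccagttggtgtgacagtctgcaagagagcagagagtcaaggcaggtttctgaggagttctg
Isg15: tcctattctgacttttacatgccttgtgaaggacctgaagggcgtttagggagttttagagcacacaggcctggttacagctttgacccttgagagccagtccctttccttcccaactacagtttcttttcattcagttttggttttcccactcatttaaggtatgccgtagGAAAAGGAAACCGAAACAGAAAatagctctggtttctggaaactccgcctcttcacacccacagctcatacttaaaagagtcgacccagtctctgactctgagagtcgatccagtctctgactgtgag
Ifit3, Ifit3b and Ifit1 each held 2 copies on the opposite strand before the start, and Isg15 held 3 copies on its own strand that overlap one another. The copies of Ifit3 and Ifit3b, which are near copies of one gene, have the same letters as each other and as those of Ifit1. Over the list, 28 of the 37 genes had a promoter entry, and 13 of these 28 (46.4%) held a match, against 3.99% of the 27025 genes with a promoter entry of the same length. The element bound by STAT dimers, TTC and GAA set 3 bases apart, was in 5 of 28 (17.9%), against 9.55% of those genes. Other members named below had a promoter entry but no match to the GAAA core. Irf7, Irf9, Ifit2, Ifi35, Ifi44, Znfx1, Sp100, Cmpk2, Herc6, Xaf1, Oasl2 and Lgals3bp were among them. A match describes these letters and does not show that a factor was bound.

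Each library held between 28722244 and 39624978 UMIs (unique molecular identifiers, which count captured RNA molecules). After filters on UMIs, genes and mitochondrial share, 4821 and 4413 cells remained in HC mice and 3656, 5122 and 4746 in chow mice, 22758 in all. Any pair of libraries shared between 3 and 10 cell barcodes. Clusters were named from marker genes, with the listed genes and other interferon genes kept out of the clustering, and are endothelial-like, macrophage-like and so on by those markers; the short names are used below. Endothelial cells (820 in all) were led by Plvap, Flt1, Emcn and Kdr, macrophages (462) by Lyz2, C1qb and C1qc, beta cells (10078) by Ins1, Ins2 and Mafa, and alpha cells (4925) by Gcg. Smaller numbers of delta (1984), stromal (342), ductal (293) and Schwann cells (162) were also named, and 12.96% to 17.9% of the cells of a mouse stayed unnamed, among them 136 cells led by Plvap and 1561 led by Sst that also carried insulin RNA. Counts were summed per mouse and cell type. A level below is in CPM, the gene's UMIs in each 1000000 UMIs of that sum, and since 3' UMI counts do not scale with transcript length, levels of different genes are compared on that scale without a length correction.

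Of the 8 cell types compared, endothelial cells held the highest level of the listed genes in every mouse, and beta cells the lowest. That holds for the filter on cells given here. For endothelial cells chow mouse 3 was an exception with a stricter one, after which cells were clustered anew. Summed over the 37 genes, endothelial cells had 6059 and 6053 CPM in HC mice and 4067, 3847 and 4520 in chow mice. Macrophages had 2737 and 2284 in HC mice and 1235, 1399 and 1971 in chow mice. Stromal cells had 1795 and 2095 in HC mice, against 1546, 894 and 1287 in chow mice. In all 3 types the lowest HC mouse exceeded the highest chow mouse. Ductal cells had 1356 and 3736 in HC mice and 1481, 2226 and 3001 in chow mice, a spread that overlapped between diets and with macrophages. Schwann cells had 1197 and 1808 in HC mice, against 980, 701 and 1771 in chow mice. Delta cells had 814 and 892 in HC mice and 744, 744 and 720 in chow mice, where the diets did not overlap either. Alpha cells had 641 and 667 in HC mice, against 665, 639 and 623 in chow mice. Beta cells had 229 and 169 in HC mice, against 205, 166 and 174 in chow mice. Ductal, macrophage, stromal and Schwann cells overlapped with their neighbours in this order, and 1 Schwann value lay below the delta values, while delta, alpha and beta cells did not overlap each other. With a minimum of 2000 UMIs per cell and at most 10% mitochondrial UMIs, cells were also clustered anew. The endothelial sum was then 4326 and 1771 in HC mice and 2788, 1267 and 1189 in chow mice, so the diets overlapped. In chow mouse 3 the endothelial sum was below the macrophage sum of 1411. This setting formed no separate unnamed cluster led by Plvap, so its endothelial group does not hold the same cells. In chow mouse 3 that group had 48 cells with 327226 UMIs, against 80 cells with 112617 UMIs under the first filter. Under the first filter the unnamed cells led by Plvap had 1182 and 981 in HC mice and 1065, 711 and 984 in chow mice, where the diets overlapped. An unnamed cluster of 9 cells, all of HC mouse 2, had 6186.

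**Figure D1:**
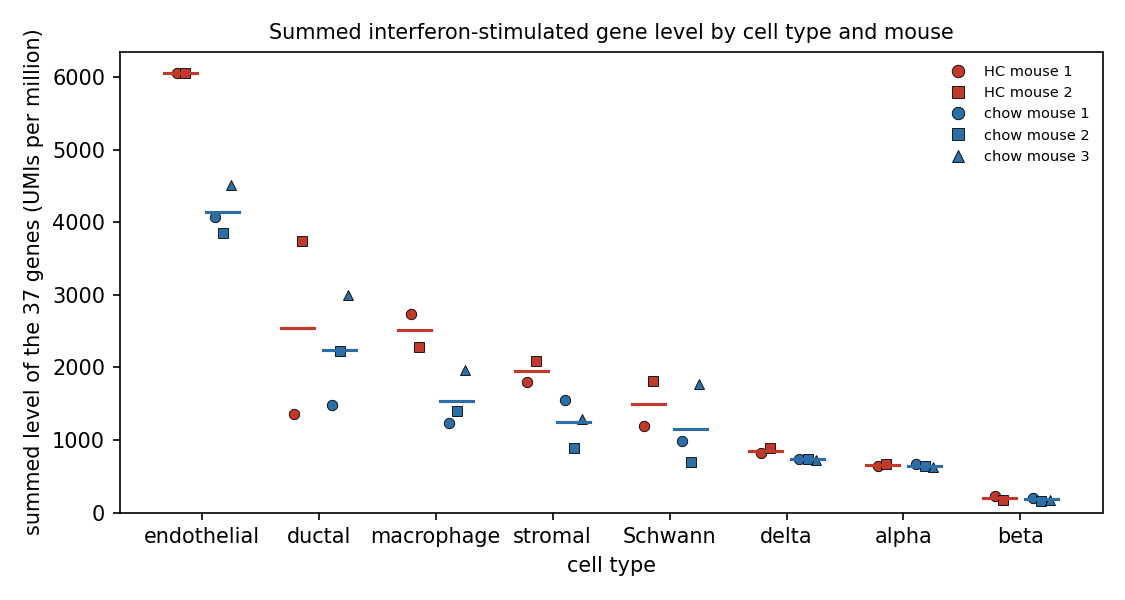
Summed level of the 37 genes (CPM, vertical axis) in each of 8 cell types, with 1 point per mouse and a bar at each diet's mean (HC left, chow right). Endothelial cells of HC mice sit at 6059 and 6053 and those of chow mice between 3847 and 4520, and beta cells of all 5 mice sit between 166 and 229.

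The islet hormone genes took 68.2% of beta cell UMIs in HC mice and 70.0% in chow mice, so the beta level was also computed without them. With these genes removed from the totals, the mean over the 5 mice was 613 in beta, 1186 in alpha, 1130 in delta, 2520 in macrophage and 5035 in endothelial cells, so beta cells were still the lowest. Beta cells also differ in which cluster held most of them: the cluster led by Prlr in HC mouse 1, that led by Npy in HC mouse 2 and chow mice 2 and 3, and that led by Mafa in chow mouse 1.

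Gene by gene over the 8 types compared, 29 of the 37 were highest in endothelial cells, 20 of them in all 5 mice. For 11 no endothelial value of any mouse fell within the range of the second type. Rsad2, which encodes the radical SAM enzyme viperin, averaged 219 CPM in endothelial cells of HC mice and 187 in those of chow mice, against 15.1 over the 5 mice in macrophages, the second type. Ifi44 averaged 111 and was next in ductal cells at 21.3, and Ifi35, an interferon-induced leucine zipper protein gene, averaged 356 and was next in macrophages at 74.0. Trim30a, a negative regulator of Toll-like receptor signalling, averaged 108 in endothelial cells and 54.7 in macrophages, and was not detected in delta cells. In each mouse these genes were higher in endothelial cells than in the other types compared. For Trim30a the gap was small, with a lowest endothelial value of 79.9 and a highest macrophage value of 77.0. An unnamed cluster led by H2-Ab1, H2-Aa and Cd74 averaged 125 CPM of Trim30a, above the endothelial mean.

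Of the sensor and synthetase genes, 6 were highest in macrophages, while Ddx58, Ifih1, Znfx1, Eif2ak2 and Oasl2 were highest in endothelial cells. The cytoplasmic nucleic acid sensor gene Zbp1 averaged 32.2 in macrophages and 24.4 in endothelial cells, and Dhx58 averaged 21.3 in macrophages and 13.6 in endothelial cells. Oas1a, Oas2, Oas3 and Oasl1 were also highest in macrophages, at 23.01, 11.7, 3.52 and 12.9, and Oas3 had no UMI in endothelial cells of any mouse. For all 6 of these genes the mice of the highest and the second type overlapped. Reads of Oas1a are uncertain, since 70.0% of the 31-letter words at the ends of its transcripts also occur in Oas1g.

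The other members with a different leading type were secreted or membrane proteins. Lgals3bp, which encodes a secreted galectin-binding glycoprotein, was highest in delta cells (250 and 265 in HC mice, against 228, 236 and 195 in chow mice) and next in alpha cells. Ifi27, which encodes a small hydrophobic protein, was highest in ductal cells, where it made up 28.3% of the listed genes' UMIs. Bst2 and Ly6e, a cell surface protein gene of the Ly6 family, were the main part of the endothelial sum, at 20.1% and 17.3% of it. In alpha cells Ly6e took 35.2% and Lgals3bp 29.7%, and in beta cells Lgals3bp took 23.8% and Ifi27 17.6%. Without these 4 genes the mean sum was 2665 in endothelial, 953 in macrophage, 810 in ductal, 734 in stromal, 606 in Schwann, 277 in delta, 155 in alpha and 83.6 in beta cells. Ductal cells were then below macrophages, whereas with all 37 genes their mean of 2360 was above the macrophage mean of 1925, and the other types kept their order.

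**Figure D2:**
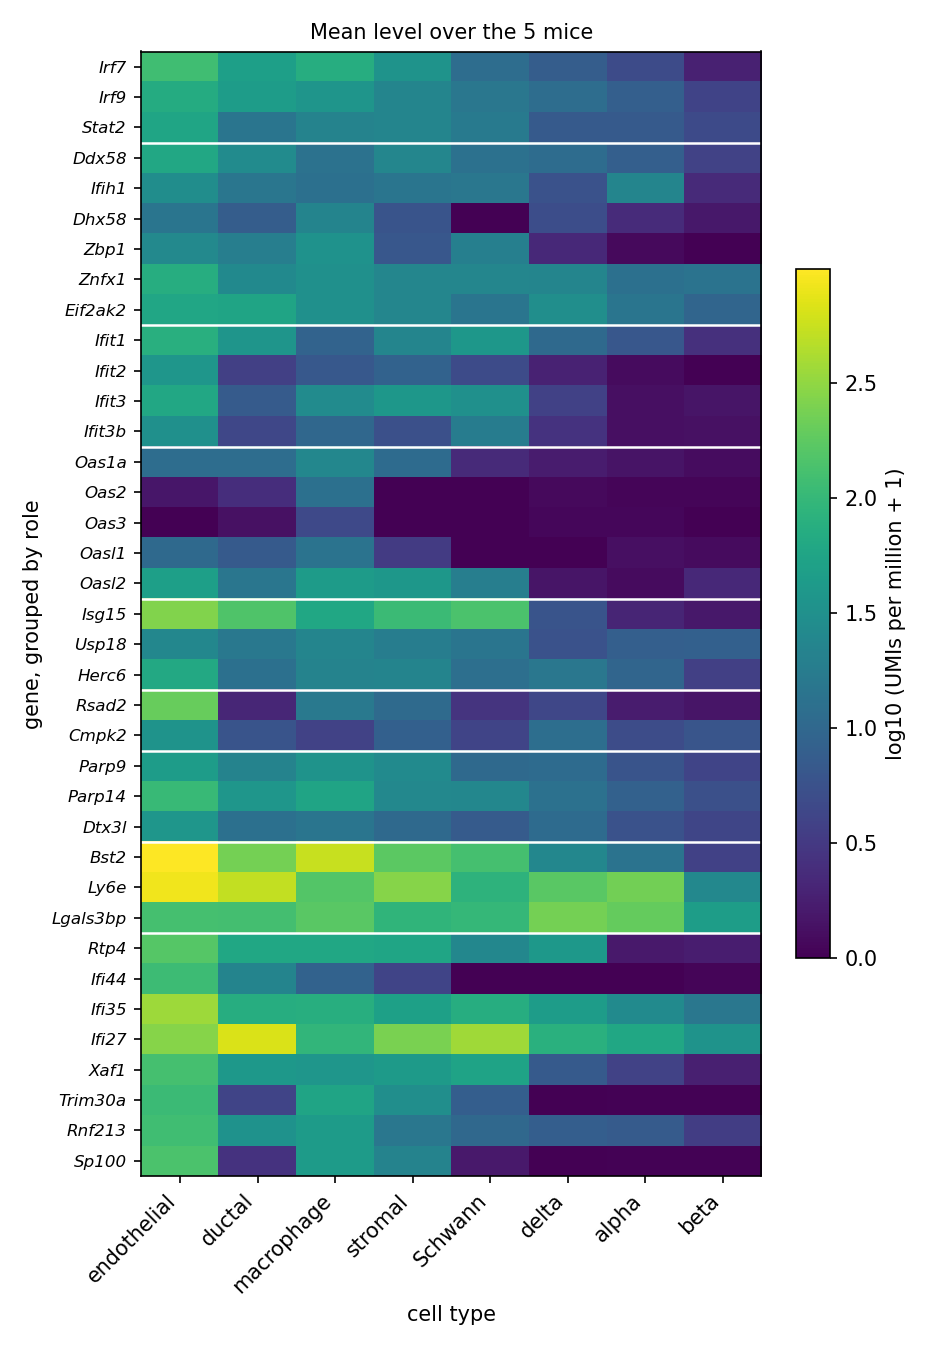
Mean level over the 5 mice of each of the 37 genes (rows, grouped by role) in 8 cell types (columns), as log10 of CPM plus 1. The endothelial column is the brightest for 29 genes and the beta column the darkest for 23. Bst2, Ly6e, Lgals3bp and Ifi27 stay visible in most types. The levels are shares of all UMIs, hormone UMIs included.

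Tested against beta cells in the same mice, nearly all members were higher in endothelial cells and macrophages. edgeR's quasi-likelihood test with the mouse as a block (Benjamini-Hochberg adjustment over 10496 genes, threshold 0.05) called 33 of 35 tested members higher and 0 lower in endothelial cells, against 33.7% of all genes called higher, with a median log2 difference of 3.70. In macrophages 32 were higher, against 25.0% of all genes, with a median of 3.35. The largest endothelial differences were those of Sp100, a nuclear body protein gene, Trim30a and Ifi44, at log2 9.53 ± 0.31, 9.49 ± 0.34 and 8.43 ± 0.33 (SE). In macrophages Trim30a, Zbp1 and Sp100 led with 9.16 ± 0.44, 9.01 ± 0.57 and 8.53 ± 0.46. These sizes rest on beta levels near 0 and depend on the prior count. Usp18, which removes ISG15 from proteins, had 0.34 ± 0.29 (adjusted p = 0.307, edgeR) in endothelial cells and Lgals3bp 0.08 ± 0.12 (0.593), and neither passed. In macrophages Znfx1 (0.52 ± 0.27, adjusted p = 0.106) and Ifit1 (1.58 ± 0.82, adjusted p = 0.119, edgeR) did not pass. Ifit1 passed with DESeq2 (adjusted p = 0.0162), with no filter on low counts (0.0192), with members among the clustering genes (0.00348) and without chow mouse 2 (0.00807), and Znfx1 passed without the highest doublet scores (0.0321) and without chow mouse 1 (0.0489). Cmpk2, a mitochondrial nucleotide kinase gene beside Rsad2, was the 1 member lower in macrophages (-1.49), against 24.2% of all genes. That call was lost without any 1 chow mouse, with DESeq2, without hormone-rich droplets, without the highest doublet scores and with the stricter filter on cells.

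Alpha and delta cells differed from beta cells member by member. In alpha cells 11 of 35 members were higher (28.5% of all genes) and 5 lower (30.1%), with a median of 0.04. The test rescales the totals between cell types, while the levels in CPM are shares of all UMIs, hormone UMIs included. Parp9, for example, averaged 5.06 CPM in alpha and 3.14 in beta cells, with a log2 difference of 0.01 in the test. Ifih1, the gene of the RNA sensor MDA5, had 23.9 and 27.4 CPM in alpha cells of HC mice and 27.7, 15.97 and 16.1 in those of chow mice, while beta cells had 0.588 to 1.79 over the 5 mice. Its log2 difference of 3.38 ± 0.16 (SE, adjusted p = 1.86e-40, edgeR) was the largest in alpha cells, and Ly6e followed with 2.55 ± 0.21. Oasl2 was lower in alpha than in beta cells (-2.95 ± 0.49, adjusted p = 7.96e-08). In delta cells 16 members were higher (24.8% of all genes) and 3 lower (25.2%), with a median of 0.61. Rtp4, whose product is a chaperone of receptors in the Golgi, was the largest at 4.38 ± 0.20, with 35.3 and 45.4 in delta cells of HC mice and 27.8, 40.4 and 42.3 in those of chow mice, against 0.427 to 1.00 in beta cells. Zbp1 and Ifit2 were also higher in delta cells (3.98 ± 0.91 and 3.14 ± 0.96), from at most 2 UMIs in any mouse. The Ifit2 call was lost without chow mouse 3 (2.57, adjusted p = 0.0594, edgeR).

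RNA of other cells was measured beside these levels. Plvap, Flt1 and Pecam1, which define endothelial cells, reached at most 0.0120% of their endothelial level in beta cells, and the members' median was 2.68% of theirs, with 0 of 36 at or below the markers. In delta cells the macrophage markers C1qb and Lyz2 were at 0.0277% and 0.0292% of their macrophage level, and 4 of 37 members, with no UMI in delta cells, lay at or below these shares. The complement gene C1qa stood apart, at 258 CPM in delta cells of HC mice and 214 in those of chow mice on average, 4.62% of the macrophage level. Measured against C1qa alone, 10 of 37 members were at or below its share, with Zbp1 at 3.77% and Bst2 at 4.20%.

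In endothelial cells of HC mice most members were higher than in chow mice, with Ifit3 the 1 member that passed the test. Ifit3, which encodes an IFIT scaffold protein (ENSMUSG00000074896, GRCm38 chromosome 19, 34583531 to 34588731), had 106 and 115 CPM in HC mice and 30.3, 31.3 and 26.6 in chow mice. Both HC mice lay far above the 3 chow mice, which differed little from each other. Ifit3 rose in HC mice, by 1.84 on the log2 scale with an SE of 0.33 (edgeR's quasi-likelihood test, adjusted p = 0.0214). It was 1 of 31 members tested, against 0.0192% of all genes called higher and 0.0192% called lower. At an unadjusted p under 0.05, 14 of the 31 were higher, against 1.6% of all genes. The filter on low counts needs enough UMIs in only 2 mice, and Ifit3, Ifit2 and Zbp1 met it in HC mice alone. These members thus entered the test through the group in which they were high. Within the FUN libraries the log2 difference of Ifit3 was 1.60 and within SKY 1.73. Leaving out any 1 chow mouse ended the call (adjusted p = 0.181, 0.738 and 0.257 without chow mouse 1, 2 and 3), while 3 members passed without HC mouse 1 and 2 without HC mouse 2. With DESeq2 (adjusted p = 1.00), with age as a term (0.0585), at a clustering resolution of 0.5 (0.737) and with HC mouse 2 counted as chow (0.95) Ifit3 did not pass either, and with the stricter filter on cells 0 members passed. The stricter filter and resolution 0.5 each formed no separate unnamed cluster led by Plvap, so their endothelial groups do not hold the same cells.

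Of the 37, 35 had at least 10 UMIs over the 5 mice in endothelial cells. Each HC value exceeded every chow value for 16 of these 35, against 9.76% of all genes with as many UMIs, and fell short of them for 0, against 7.67%. The mean was higher in HC mice for 32 of 35 (91.4%), against 52.5% of all genes. The median log2 ratio was 0.49 over members and 0.02 over all genes, with 0.51 in FUN and 0.49 in SKY libraries taken alone. With hormone counts removed the count of 16 was the same, and leaving out 1 mouse gave 18 to 24, where the share of all genes also rose, to between 15.8% and 27.0%.

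By role, the IFIT family differed most in endothelial cells. Its 4 genes summed to 315 and 347 CPM in HC mice and 101, 108 and 160 in chow mice, a ratio of 2.69. Ifit1, which binds viral RNA that lacks a methylated cap, had 99.9 and 139 in HC mice, against 26.9, 38.3 and 79.9 in chow mice, and Ifit2 had 69.6 and 50.8 in HC mice, against 13.5, 31.3 and 17.8. Ifit3b had 39.4 and 42.7 in HC mice and 30.3, 6.96 and 35.5 in chow mice. Neither Ifit1 (log2 1.51 ± 0.35, adjusted p = 0.265), Ifit2 (1.43 ± 0.44, 1.00) nor Ifit3b (0.88 ± 0.55, 1.00, edgeR) passed. Reads of Ifit3 and Ifit3b are uncertain, since 24.0% and 9.17% of the 31-letter words at the ends of their transcripts also occur in other genes, each other among them.

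The genes of the ISGF3 factor and its partner followed. Irf7, the transcription factor that amplifies interferon production, had 188 and 160 in HC mice and 77.4, 73.1 and 88.8 in chow mice (log2 1.13 ± 0.25, adjusted p = 0.239, edgeR). The groups were far apart, yet the gene did not pass, except without HC mouse 2 (adjusted p = 0.0269) and with no filter on low counts (0.0359). Irf9 and Stat2, the DNA-binding and STAT parts of ISGF3, overlapped between diets: Irf9 had 90.8 and 74.8 in HC mice and 50.5, 76.6 and 53.3 in chow mice. Together the 3 genes had 354 and 294 in HC mice, against 195, 185 and 187 in chow mice.

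Among sensors, Zbp1 had 57.5 and 40.1 CPM in endothelial cells of HC mice and 3.36, 3.48 and 17.8 in those of chow mice. The chow values rest on 1 or 2 UMIs each, and the difference of log2 2.94 ± 0.74 did not pass (adjusted p = 0.40, edgeR). Znfx1, a helicase gene, had 127 and 93.5 in HC mice and 60.6, 45.3 and 35.5 in chow mice. Ddx58, Ifih1 and Dhx58 overlapped between diets, and Dhx58 was the 1 of 6 sensor genes with a lower mean in HC mice (8.55 against 16.9).

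Among the abundant surface genes the ratios were smaller. Bst2 had 1244 and 1263 in HC mice and 643, 752 and 1021 in chow mice. Ly6e had 993 and 1034 in HC mice and 760, 658 and 808 in chow mice. Isg15, the ubiquitin-like modifier, had 279 and 414 in HC mice, against 188, 198 and 248.6 in chow mice. For all 3 the diets did not overlap, and none passed (adjusted p = 1.00 for each, edgeR). Rsad2 overlapped between diets with 224 and 214 in HC mice and 252, 132 and 178 in chow mice. Ifi27 (315 and 227 in HC mice, against 273, 292 and 302 in chow mice) and Herc6 (72.7 and 48.1 in HC mice, against 74.0, 55.7 and 62.2 in chow mice), the gene of an ISG15 ligase in the mouse, had the lowest differences of the 31 members tested, log2 -0.12 ± 0.20 and -0.13 ± 0.32 (adjusted p = 1.00 for each).

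**Figure D3:**
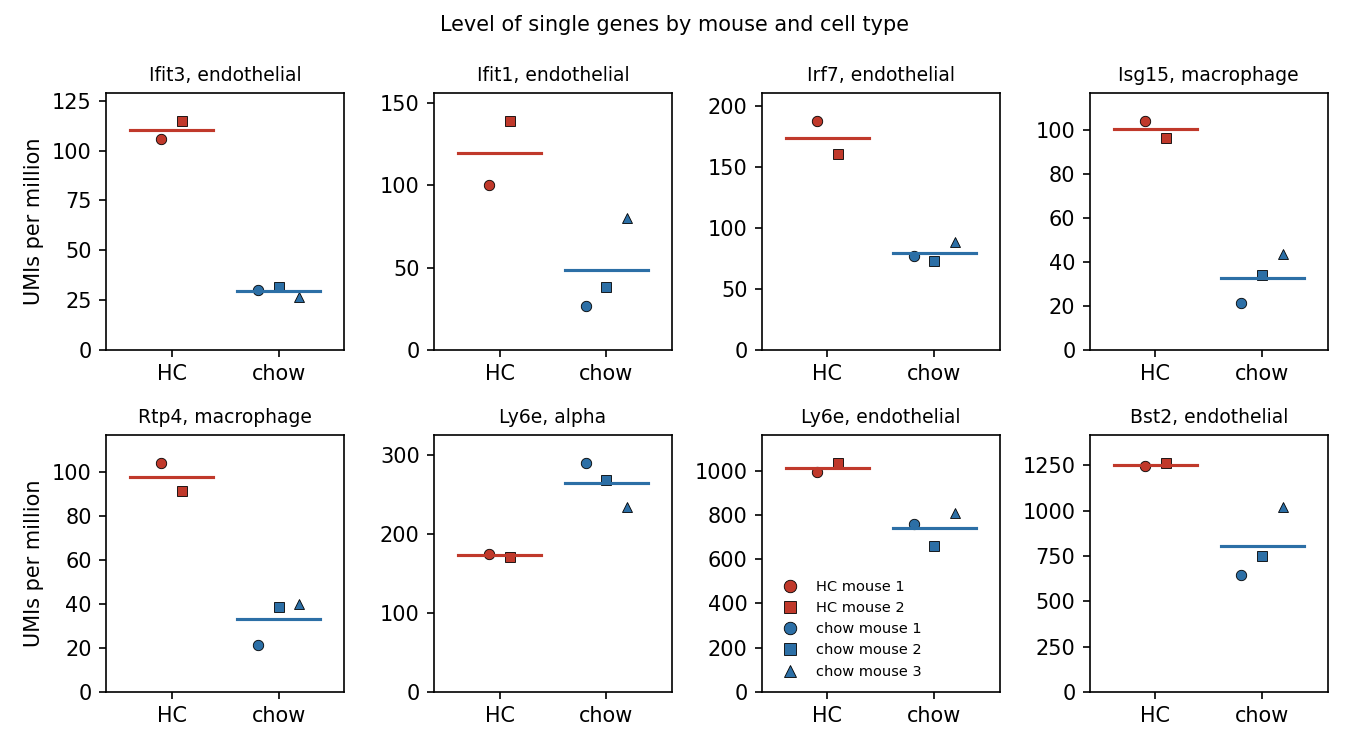
Level of 7 genes in single cell types (CPM, vertical axis from 0), with 1 point per mouse and a bar at the mean of HC mice (left) and chow mice (right) in each of 8 panels. HC points lie above all chow points in every panel except Ly6e in alpha cells, where HC mice are at 175 and 171 and chow mice at 291, 269 and 234.

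In macrophages the IFIT, viperin and ISG15 genes were also higher in HC mice, and no member passed the test. The 4 IFIT genes summed to 99.7 and 99.3 CPM in HC mice and 0, 29.1 and 18.1 in chow mice. Isg15 had 104 and 96.7 in HC mice and 21.2, 33.9 and 43.5 in chow mice. Rtp4 had 104 and 91.5 in HC mice and 21.2, 38.7 and 39.9 in chow mice. HC mice lay above chow mice for each of these. Rsad2 had 31.7 and 36.6 in HC mice, from 7 and 14 UMIs, and 0, 0 and 7.25 in chow mice, from 2 UMIs in all. The counts are small: the IFIT sum of HC mouse 2 came from 38 UMIs, 20 of them in 5 cells, and that of chow mice from 11 UMIs in 239 cells.

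Isg15 had a log2 difference of 1.43 ± 0.36 and Rtp4 of 1.38 ± 0.36, with adjusted p = 1.00 for each. edgeR called 0 of 13 tested members, against 0.0766% of all genes in either direction. At an unadjusted p under 0.05, 4 members were higher, Isg15 and Rtp4 among them, against 1.76% of all genes, and DESeq2 called 0. Of the 13 tested, Isg15, Rtp4, Zbp1 and Xaf1 met the filter on low counts in HC mice alone. They thus entered the test through the group in which they were high. Over all members, 34 of 37 had at least 10 UMIs. Each HC value exceeded every chow value for 15 of 34, against 14.4% of all genes, and was under all of them for 0, against 5.71%. The mean was higher in HC mice for 30 of 34 (88.2%), against 61.5%, and the median log2 ratio was 0.73, against 0.14 over all genes. Taken alone, FUN libraries gave 0.87 and SKY libraries 0.36, and without chow mouse 1 the median was 0.45.

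Insulin RNA moved with diet in the same macrophage sums. The share of Ins1 and Ins2 in all UMIs of the macrophages was 13.4% ± 0.718 (SD, n = 2) for HC mice, against 24.4% ± 2.89 (SD, n = 3) for chow mice. Both genes were called lower. With hormone counts removed, 12 of 34 members had each HC value above every chow value, against 9.61% of all genes, 2 had each below, and the median was 0.58, against -0.02. Without droplets that held 20% or more hormone UMIs 13 of 32 were above, against 9.95% of all genes, 2 were below, and the median was 0.58. The summed level had a ratio of 1.64 as counted, 1.46 with hormone counts removed and 1.44 without hormone-rich droplets, with no overlap between diets in any of the 3. In endothelial cells insulin took 1.41% ± 1.06 in HC mice and 2.30% ± 1.56 in chow mice.

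**Figure D4:**
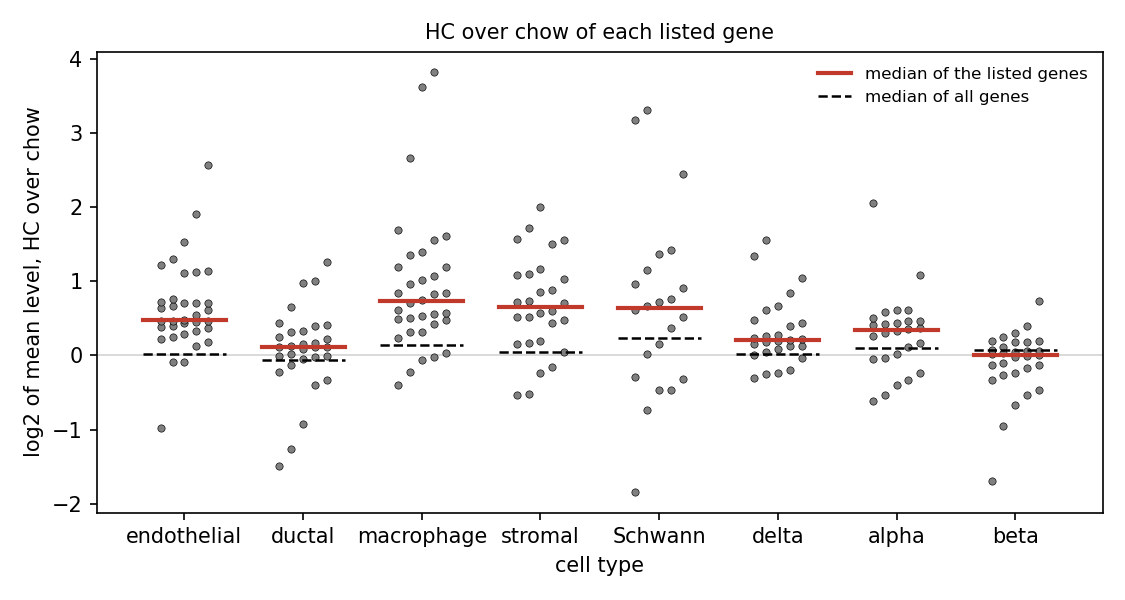
log2 ratio of the mean level in HC mice over that in chow mice (vertical axis) for each listed gene with at least 10 UMIs over the 5 mice and a mean above 0 in both diets (1 point per gene), by cell type. The median of the listed genes (red bar) is 0.49 in endothelial cells and 0.73 in macrophages, and that of all genes (dashed) is 0.02 and 0.14, while in beta cells both are close to 0.

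In the remaining types fewer members had each HC value above every chow value. The median log2 ratio was not lower in all of them. It was 0.65 in stromal (0.04 over all genes) and 0.64 in Schwann cells (0.24), both above the endothelial 0.49. The Schwann sums came from 22 to 52 cells of a mouse. Insulin took 7.93% ± 4.83 (SD, n = 2) of their UMIs in HC mice and 22.8% ± 14.9 (SD, n = 3) in chow mice, with 5.97% in chow mouse 3. In alpha cells the median log2 ratio was 0.34 (0.10), in delta cells 0.22 (0.02) and in ductal cells 0.12 (-0.07). In stromal cells each HC value exceeded every chow value for 7 of 28 members, against 11.3% of all genes, and below for 0, against 5.91%, with Isg15 at 143 and 161 in HC mice and 85.9, 44.9 and 115 in chow mice. The mean was higher in HC mice for 24 of the 28, against 53.1% of all genes. In delta cells 7 of 27 were above, against 10.2%, 0 below, against 8.03%, and 22 had a higher mean, against 52.9%. In alpha cells 10 of 26 were above, against 18.9%, 1 below, against 5.09%, and 19 had a higher mean, against 65.0%. In Schwann cells 5 of 22 were above, against 12.8%, 1 below, against 5.11%, and 16 had a higher mean, against 65.8%. In ductal cells 2 of 30 were above, against 6.36%, 3 below, against 7.12%, and 19 had a higher mean, against 43.6%. In beta cells it was 2 of 30, against 7.23%, with 2 below, against 3.95%, 16 with a higher mean, against 63.7%, and a median log2 ratio of 0.01, against 0.07 over all genes. The beta counts rested on single mice. Members above numbered 11 without HC mouse 2, where 48.1% of all genes lay above, and 4 without chow mouse 1 (28.3%). Without HC mouse 1, 13 of 30 lay below and the median was -0.31, against -0.10 over all genes, and 7 lay below without chow mouse 3.

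edgeR called 0 members in stromal, delta, beta, ductal and Schwann cells. Members with a higher level in HC mice at an unadjusted p under 0.05 numbered 1 in stromal (0.653% of all genes), 2 in delta (1.75%), 2 in beta (2.6%), 2 in ductal (1.36%) and 0 in Schwann cells (0.526%). Lower ones numbered 2 in beta (2.66% of all genes) and 1 in ductal cells (1.4%), and DESeq2 called 0 in all 5 types. The share of all genes called either way was 0.0% in stromal, ductal and Schwann cells, 0.0223% in delta and 0.0085% in beta cells. Bst2 had 3.27 and 4.02 CPM in beta cells of HC mice and 2.87, 2.34 and 1.34 in those of chow mice, with log2 0.70 ± 0.27 (adjusted p = 0.929, edgeR). Lgals3bp, Ifi35 and Usp18 were the other beta members of smallest p, at log2 0.32, -0.33 and -0.41 (adjusted p = 0.822, 0.862 and 0.929). In delta cells Ifi27 (89 and 111 in HC mice, 66.4, 61.5 and 68.5 in chow mice) had log2 0.59 ± 0.17 (adjusted p = 1.00).

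Alpha cells held the 1 member that was called lower in HC mice. Ly6e had 175 and 171 CPM in HC mice and 291, 269 and 234 in chow mice, so that both HC mice were below every chow mouse. By edgeR Ly6e fell by 0.71 (log2, SE 0.12; adjusted p = 0.0333), as 1 of 21 members tested, against 0.046% of all genes called lower and 0.0% called higher. At an unadjusted p under 0.05 there were 2 higher members, against 3.49% of all genes. Ly6e took more of the alpha cell sum than any other member. Without Ly6e, Bst2, Lgals3bp and Ifi27 the alpha sum had a ratio of 1.17, against 1.02 with them. DESeq2 called Ly6e as well, but leaving out any 1 mouse ended the edgeR call, with adjusted p of 0.171 and 0.0566 without HC mouse 1 and 2 and 0.292, 0.259 and 0.074 without chow mouse 1, 2 and 3. Lgals3bp (216 and 236 in HC mice, against 161, 169 and 178 in chow mice) and Ifi27 were the alpha members of smallest p among those with higher means in HC mice, at log2 0.32 and 0.31 (adjusted p = 0.721 and 0.735).

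Whether the diet difference itself differed between cell types was tested with an interaction term and the mouse as a block. For macrophages against beta cells edgeR called 0 of 35 members (0.0409% of all genes), while 7 were higher at an unadjusted p under 0.05, against 2.45% of all genes, and DESeq2 called 0. Ifit3b (5.39 ± 1.59) and Rsad2 (4.26 ± 1.28) had the smallest p, with adjusted p = 0.535 and 0.593. Here too the filter on low counts needs enough UMIs in only 2 sums, and both genes met it through macrophages of HC mice alone. They thus entered the test through the group in which they were high. In beta cells of chow mouse 2, 16 of the 25 UMIs of Ifit3b and 15 of the 29 of Rsad2 came from the single cell described below. For endothelial against beta cells, a test added after the values were seen, Ifit1 (2.20 ± 0.50, adjusted p = 0.0176) and Ifi35 (0.88 ± 0.21, adjusted p = 0.048) were called, 2 of 35 members, against 0.0803% of all genes. Ifit3 was at 2.98 ± 0.73 (adjusted p = 0.0504, edgeR), and the same single cell held 12 of its 30 UMIs in beta cells of chow mouse 2. For endothelial against alpha cells, also added, Ly6e was called (1.15 ± 0.20, adjusted p = 6.34e-05), against 0.0267% of all genes, and it missed the threshold only with the stricter filter on cells among the settings run.

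A large part of the IFIT UMIs in beta cells of chow mouse 2 came from a single cell. This cell, singled out after its values were seen, had 51 of the 123 IFIT UMIs of the 2482 beta cells of that mouse, while no beta cell of the other mice held more than 5. It had 23 UMIs of Ifit1, 12 of Ifit3, 16 of Ifit3b, 15 of Rsad2, 7 of Isg15 and 5 of Bst2, and 21 members were detected, at 1.36% of its 7423 UMIs. Insulin and other hormones made up 73.1% of its UMIs, with 1418 of Ins1 and 3487 of Ins2, and 0 of 19 macrophage and 0 of 17 endothelial markers were detected. Its doublet score lay at the 12.2 percentile of that mouse's beta cells. The interferon-inducible GTPase genes and the interferon genes had 0 UMIs in it.

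Ifit1 in beta cells had 1.29 and 1.26 CPM in HC mice, against 1.43, 2.84 and 1.28 in chow mice, and chow mouse 2 was at 1.88 without that cell. Without the cell Ifit1 was at 1.89 in endothelial against beta cells and no longer called (adjusted p = 0.152, edgeR). The cell held 1 UMI of Ifi35, and the Ifi35 difference stayed at 0.88 without it, with adjusted p = 0.0552 against 0.048 (edgeR). The Ifit1 call was also lost without chow mouse 2 (1.52, adjusted p = 1), chow mouse 1 (0.119) or HC mouse 2 (0.605), and Ifi35 was lost when any 1 mouse was left out, with adjusted p between 0.119 and 0.742. Both were lost with DESeq2 and with the stricter filter on cells, and Ifi35 also without the highest doublet scores (0.134) and with hormone counts removed (0.0708).

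Single endothelial cells, macrophages and stromal cells carried more of the listed genes at once in HC mice. Every cell was thinned to 1000 UMIs, the minimum of the filter, so no cell was left out. At least 5 listed genes were detected in 77 of 142 and 116 of 274 endothelial cells of HC mice (54.2% and 42.3%) and in 45 of 144, 37 of 180 and 20 of 80 of chow mice (31.3%, 20.6% and 25%). The exact Clopper-Pearson intervals, which cover counting error only, were 45.7% to 62.6% and 36.4% to 48.4% in HC mice and 23.8% to 39.5%, 14.9% to 27.2% and 15.99% to 35.9% in chow mice. Macrophages reached 5 genes in 11.5% and 16.5% of cells of HC mice and 1.75%, 2.67% and 7.48% of chow mice. In both types the diets did not overlap. Nor did they in stromal cells, with 12.9% and 14.5% in HC mice and 2.08%, 1.79% and 6.58% in chow mice, though HC mouse 1 had only 31 such cells. In beta cells the share was at most 0.0806% in any mouse, from 0 to 2 cells. Without thinning, 5 genes were reached in 90.8% and 62.0% of endothelial cells of HC mice and 66.0%, 43.9% and 40.0% of chow mice, where the diets overlapped, and in 42.7% and 41.7% of macrophages of HC mice and 21.1%, 17.3% and 27.1% of chow mice. Median UMIs per endothelial cell were 2051 and 1238 in HC mice and 1718, 1220 and 1179 in chow mice.

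**Figure D5:**
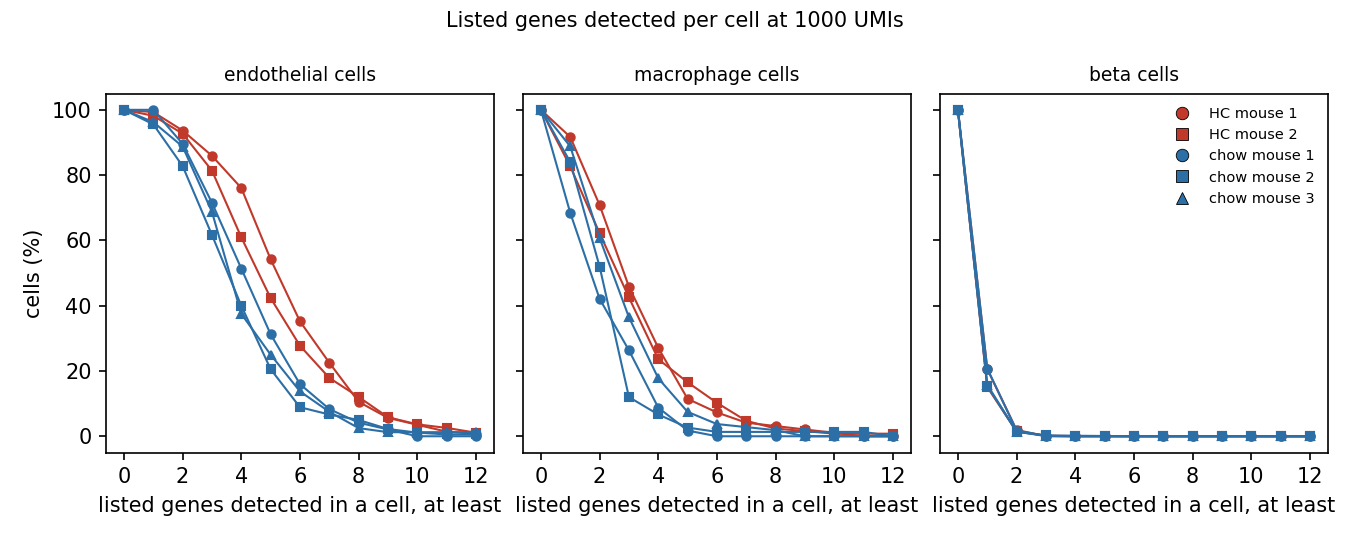
Share of cells (%, vertical axis) in which at least the number of listed genes on the horizontal axis was detected after thinning to 1000 UMIs, with 1 line per mouse, in endothelial, macrophage and beta cells. At 5 genes the HC lines are at 54.2% and 42.3% in endothelial cells and the chow lines between 20.6% and 31.3%, while all beta lines are near 0.

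Other genes of the pathway were read from lists of receptors and signal transducers, further sensors, ligands, interferon-inducible GTPases and MHC class I presentation. The receptors Ifnar1 and Ifnar2 were present in endothelial cells (22.97 and 228 CPM on average in HC mice, against 29.5 and 267 in chow mice) and in macrophages (50.8 and 235 in HC mice, against 34.1 and 233 in chow mice). Irf1, a target of interferon gamma, differed little in endothelial cells, with 209 and 187 in HC mice and 192, 167 and 222 in chow mice. The 15 GTPase genes summed to 4287 and 1720 in endothelial cells of HC mice and 1241, 919 and 1811 in those of chow mice, where HC mouse 2 lay within the chow range. All 12 tested were above 0, 6 with an unadjusted p under 0.05 and 0 called (median 1.11, against -0.0027 over all genes), and DESeq2 called 0. MHC class I genes had 13970 and 14620 in HC mice, against 13140, 11630 and 17210 in chow mice, with 0 of 14 called by edgeR, 3 higher at an unadjusted p under 0.05, against 1.6% of all genes, and 0 called by DESeq2. The 10 interferon genes listed had between 0 and 5 UMIs in any cell type over all 5 mice, and 0 in macrophages and beta cells.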

How the data were processed

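Single-cell RNA libraries of islets from 2 HC and 3 chow mice were analysed from the deposited matrices. The authors' values are UMI counts for each Ensembl gene and barcode, not normalized, and the smallest barcode held 500 UMIs. Cell Ranger 4.0.0 and build mm10 are named in the submitters' processing notes.

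Cells with at least 1000 UMIs, 500 genes and at most 15% mitochondrial UMIs were kept. Scrublet called 14 cells (0.0615%), too few for the caller to have worked, so doublets were not removed and the highest scores were left out as an alternative. Cells were clustered with scanpy 1.11.5 (2000 variable genes without the listed and other interferon genes, 30 components, 15 neighbours, Leiden resolution 1). Names needed 3 or more of a type's markers among the 10 leading genes and no abundant hormone of another type. Macrophage clusters also needed a C1q gene, a condition set after the clusters were seen. Raw counts were summed per mouse and type and tested across all genes with edgeR 4.0.16 (TMM, filterByExpr, robust quasi-likelihood) with Benjamini-Hochberg adjustment. In the diet and interaction fits this filter needs enough UMIs in only 2 mice, so a gene can pass it through the HC mice alone. Adjusted p-values of 0.9991 to 1 are printed as 1.00. DESeq2 1.42.0 was an alternative. The fits were tested on simulated data.

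The mouse is the replicate, and p-values measure the spread between 2 and 3 mice. No pair of libraries agreed within sampling noise (chi-square per degree of freedom of 1.66 or more). The members and gene lists were chosen with earlier results of these data known. In each diet fit the named members are those past the threshold and the 2 of smallest p in each direction. Against beta cells they are the 3 of largest change and the 2 of largest p, and for the planned interaction the 2 of smallest p. Other members are named for their levels. The precision of a level is set by its UMIs: 1 UMI in the endothelial sum of chow mouse 3 is 8.88 CPM. A result on 1 gene of the pathway is not reported here.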

Additional observations from a re-analysis of the deposited data

Results flagged for a closer look

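The diet difference of 3 genes differed between cell types by a test of the difference itself (edgeR, interaction of diet and type). Ifit1 had a log2 difference of 2.20 ± 0.50 (endothelial minus beta, SE, adjusted p = 0.0176) and Ifi35 of 0.88 ± 0.21 (adjusted p = 0.048). Without 1 beta cell of chow mouse 2 Ifit1 was at 1.89 (adjusted p = 0.152) and Ifi35 still at 0.88 (adjusted p = 0.0552). Both calls were also lost with DESeq2, with the stricter filter on cells and without some single mice (any 1 mouse for Ifi35). Ly6e had 1.15 ± 0.20 (endothelial minus alpha, adjusted p = 6.34e-05).

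For 5 genes each HC mouse lay above every chow mouse in one cell type and below every chow mouse in another, and the difference between the types was not tested. With Ly6e and Ifi35, 7 of 35 members (20.0%) showed such opposite order in some pair of types, against 12.5% of all genes. As ratios of the HC mean over the chow mean, Parp9 was at 1.48 in stromal and 0.28 in Schwann cells, the second from 1 and 0 UMIs in HC mice and 2, 6 and 1 in chow mice. Usp18 was at 9.08 in Schwann cells, from 6 and 2 UMIs in HC mice and 1, 1 and 0 in chow mice, and 0.795 in beta cells. Cmpk2 was at 1.59 in delta and 0.527 in ductal cells, the second from 1 to 3 UMIs in a mouse. In alpha cells Ddx58 was at 1.52 and Dhx58 at 1.24, and in ductal cells they were at 0.356 and 0.417, with 0 to 4 UMIs of Dhx58 in a mouse.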

How the results depend on the processing

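Of 1180 values over 93 results, 1048 kept their direction and their side of the threshold or stayed close to the value reported. The cause was not tested for any that did not. Depth limits the macrophage, stromal and Schwann results most, where only 13, 7 and 6 members passed the filter on low counts. No paired analysis was possible because the replicate numbers of the mice only follow the order of the samples. The name prefix, which both diets share, was fitted as a term instead.

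Members called for diet in endothelial cells numbered 1 as reported, 0 with DESeq2, with HC mouse 2 as chow, with age as a term, at resolution 0.5 and with at least 2000 UMIs and at most 10% mitochondrial UMIs, 4 with no filter on low counts, and 0 to 3 when 1 mouse was left out. In alpha cells the 1 call became 0 with HC mouse 2 as chow and when any 1 mouse was left out. In ductal cells it was 2 with age as a term and 0 to 1 without 1 mouse, and in stromal cells 0 to 1. The 1 member called lower in macrophages than in beta cells became 0 with DESeq2, without the 6% highest doublet scores, without hormone-rich droplets and with the stricter filter on cells, and 0 to 1 without 1 mouse. For the diet effect in endothelial against beta cells the 2 calls became 0 with DESeq2, without 1 beta cell and with the stricter filter, 1 without high doublet scores and with hormone counts removed, and 0 to 2 without 1 mouse. Against alpha cells the 1 call became 0 with the stricter filter. The count of members above in beta cells was 2 to 11 without 1 mouse.

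The summed endothelial level was 2268 CPM with the stricter filter and 3327 at resolution 0.5, and that of delta cells 630.5 at resolution 0.5. Both settings clustered cells anew and formed no separate unnamed cluster led by Plvap, so their groups do not hold the same cells. In macrophages the summed level was 2869 without hormone-rich droplets. With hormone counts removed it was 1939 in Schwann, 1186 in alpha, 613.2 in beta, 1130 in delta and 2193 in stromal cells. The alpha ratio of HC over chow was 0.9835 with hormone counts removed and 0.9855 with the stricter filter.

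Signs turned among differences that had not passed. With HC mouse 2 as chow the log2 differences were -0.10 for Ifi35, -0.27 for Ifi27 and 0.36 for Ly6e in Schwann cells, -0.0845 for Ifi27 and 0.18 for Cmpk2 in alpha cells, 0.27 for Znfx1 in delta cells, -0.16 for Ifit1 and -0.40 for Bst2 in ductal cells, and 0.19 for Ifi27 and 0.27 for Herc6 in endothelial cells. With the stricter filter they were -0.11 for Parp9 in alpha and -0.87 for Usp18 in endothelial against beta cells, 0.26 for Ifi27 and 0.0017 for Herc6 by diet in endothelial cells, and 0.0418 for Ifi27 and 0.40 for Ly6e in macrophages. Resolution 0.5 gave 0.0311 for Ifi27 in endothelial cells and 0.0794 for Ly6e in macrophages, where Ly6e was also 0.51 with age and 0.0006 with the prefix as a term. Oas1a in alpha against beta cells was -0.0874 without high doublet scores, and Lgals3bp in endothelial against beta cells -0.0594 without hormone-rich droplets. Leaving out 1 mouse gave -0.15 to 0.18 for Parp9 and -0.77 to 0.42 for Oas1a in alpha, -0.26 to 0.10 for Cmpk2 and -0.13 to 0.25 for Oas1a in delta and -0.11 to 0.57 for Usp18 in endothelial against beta cells. By diet it gave -0.0487 to 0.81 for Ifi27, -1.67 to 0.21 for Bst2 and -0.62 to 0.25 for Ly6e in Schwann cells, -0.91 to 0.0816 for Znfx1 in delta cells, -0.34 to 0.11 for Ifi27 and -0.42 to 0.15 for Herc6 in endothelial cells, and -0.57 to 0.83 for Ly6e in macrophages.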
